A study of Homo sapiens with 6 samples.

Results

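The 9 genes described here encode the core of MHC class I antigen presentation: the heavy chains HLA-B, HLA-C, HLA-E and HLA-F, the light chain B2M, the peptide transporter subunits TAP1 and TAP2, the loading factor tapasin (TAPBP) and the transcriptional co-activator NLRC5. They were taken by gene symbol from a table of 61806 genes, each symbol matched 1 row, and all 9 were expressed highly enough to be among the 16354 genes tested. The cells are labelled as CD133 positive HepG2, a human liver cancer line, and the levels of hepatocyte markers and of the CD133 gene, given below, go against that label. The groups were LAPTM4B knockdown cells (3 libraries, named shLAP in the sample titles) and control cells (3 libraries, named NC, genotype given as WT). LAPTM4B encodes a lysosomal transmembrane protein, and the study asked about its link to YAP and stemness in liver cancer. The labels give neither the number of hairpins or clones nor whether the replicates grew as separate cultures. The p-values therefore rest on a spread between libraries that may be technical.

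Class I molecules display peptides from proteins made inside the cell to CD8 T cells. Proteasomes cut the proteins, TAP1 and TAP2 carry the peptides into the endoplasmic reticulum, and tapasin holds empty class I molecules at the transporter until a peptide fits. NLRC5 binds no DNA itself and joins RFX, CREB/ATF and NF-Y factors on a short promoter module shared by class I genes, beside which lies a site for interferon regulatory factors. Hepatocytes carry little class I at rest and raise it strongly under interferon.

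Of the 9 genes, 8 fell and 1 rose in LAPTM4B knockdown cells (edgeR quasi-likelihood test, adjusted p under 0.05), and the groups overlapped for none of them. Among all genes tested 55.9% were called, 27.9% as lower and 28.0% as higher, and the groups did not overlap for 60.4%, so a single call carries little weight and the sizes are given for each gene. With limma on log2(FPKM + 0.1), which differs in scaling, test and filter, 4496 genes were called higher and 2915 lower, against 4584 and 4559 with edgeR. The median log2 change of the 9 genes was -0.54, beside 0.01 over all genes tested. The heavy chains fell most, by 1.60-fold to 2.58-fold. B2M, TAP1 and TAPBP fell 1.43-fold, 1.39-fold and 1.45-fold, and TAP2 fell 1.11-fold. NLRC5, the co-activator of these genes, was the gene that rose, 1.27-fold.

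Gene counts summed to between 15204269 and 16303949 in knockdown libraries and between 15667396 and 19987318 in control libraries. Correlations of log2 CPM across genes were at least 0.990 within a group and at most 0.958 between groups. Levels are given as CPM, counts scaled to a common library total with TMM factors, which adjust for library composition. The targeted transcript, LAPTM4B, was at 227, 237 and 232 CPM in knockdown libraries, against 327, 325 and 350 CPM in control libraries. The knockdown was thus partial, and the level fell by 30.6% (log2 change -0.53, edgeR adjusted p = 3.25e-12). A log2 change of -0.5 or lower was found for 17.9% of all genes tested, so a fall of this size was common. The defining hepatocyte markers ALB, APOA1 and APOB were at 0 counts throughout, and 6 of 10 markers, these included, never exceeded 3 counts. The 10 markers summed to 9.25 to 9.99 CPM in knockdown and 18.1 to 20.2 CPM in control libraries. PROM1, the gene of CD133, had 6 to 12 counts per knockdown library and 1 to 3 per control library. These levels do not match cells labelled as HepG2 and as CD133 positive. The 8 leukocyte markers summed to 1.03 to 2.27 CPM in knockdown and 1.88 to 2.50 CPM in control libraries, with LYZ at 0 counts in all libraries, CD3E at no more than 1 and PTPRC at no more than 3. The 5 endothelial markers summed to 60.2 to 66.9 CPM in knockdown and 51.97 to 55.97 CPM in control libraries, of which ESAM gave 62.4 CPM on average in knockdown and 51.9 CPM in control cells. PECAM1 fell to 0.188 CPM in knockdown cells, against 1.88 CPM in control cells, and ESAM rose (edgeR adjusted p = 4.63e-06 and 2.98e-04), while CDH5, VWF and KDR had at most 5 counts in any library. The 6 fibroblast markers summed to 16.8 to 19.9 CPM in knockdown and 10.1 to 13.1 CPM in control libraries, and PDGFRB and FAP rose (edgeR adjusted p = 1.52e-08 and 3.49e-06). The part of these markers in the class I levels was not tested. In bulk RNA, fewer cells expressing a gene and less RNA per cell cannot be told apart.

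Upstream sequences from RefSeq (GRCh38.p14) are shown for 6 genes whose transcripts fell together, because NLRC5 and interferon regulatory factors are known to act on class I pathway genes through short motifs near the start site. A promoter entry was matched for 7 of the 9 genes. HLA-E and NLRC5 had no entry, and TAP1 had 2, of which the first is shown. Positions count from the annotated start site, and each stretch runs from -180 to -31, or to -1 for TAPBP. Capitals mark the NF-Y motif CCAAT, whose other strand reads ATTGG. They also mark the core of the CREB/ATF site, TGACG, with its other strand CGTCA. The remaining capitals mark TTTCNNTT, with the other strand AANNGAAA, a pair of sites for interferon regulatory factors.
HLA-B (chr6:31357210-31357359, minus strand): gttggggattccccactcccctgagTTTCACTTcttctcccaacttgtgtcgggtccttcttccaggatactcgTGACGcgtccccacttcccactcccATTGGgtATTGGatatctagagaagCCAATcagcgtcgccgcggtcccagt
HLA-C (chr6:31272123-31272272, minus strand): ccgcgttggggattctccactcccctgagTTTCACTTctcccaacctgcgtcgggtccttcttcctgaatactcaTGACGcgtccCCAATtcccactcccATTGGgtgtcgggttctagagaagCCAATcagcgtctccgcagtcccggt
HLA-F (chr6:29723254-29723403, plus strand): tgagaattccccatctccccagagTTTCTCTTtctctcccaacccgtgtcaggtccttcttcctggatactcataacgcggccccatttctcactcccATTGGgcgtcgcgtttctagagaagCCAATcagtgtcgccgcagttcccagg
B2M (chr15:44711337-44711486, plus strand): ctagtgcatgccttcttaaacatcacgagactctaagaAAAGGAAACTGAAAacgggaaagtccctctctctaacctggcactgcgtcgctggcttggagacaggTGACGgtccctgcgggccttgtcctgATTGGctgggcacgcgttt
TAP1 (chr6:32853735-32853884, minus strand): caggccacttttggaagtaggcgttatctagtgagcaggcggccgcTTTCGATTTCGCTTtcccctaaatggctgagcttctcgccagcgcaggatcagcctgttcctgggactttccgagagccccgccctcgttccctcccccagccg
TAPBP (chr6:33314079-33314258, minus strand): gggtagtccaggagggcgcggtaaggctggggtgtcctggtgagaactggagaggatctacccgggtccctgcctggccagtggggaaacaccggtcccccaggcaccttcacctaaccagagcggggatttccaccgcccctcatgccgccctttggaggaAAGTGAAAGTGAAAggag

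The NF-Y, CREB/ATF and interferon motifs were found in 32.0%, 21.2% and 20.3% of the 35116 promoter entries when the 250 bases upstream were searched on both strands, so a single match is common. A longer form of the interferon motif, in which TTTC stands on both sides of any 2 bases, contains the shorter one and was in 3.02% of entries. It was matched in HLA-F, B2M, TAP1, TAP2 and TAPBP. For TAP1 this holds for the first of its 2 entries, and the second held none of these motifs. HLA-B and HLA-C matched only the shorter form, which was added after the longer one had been tried. TGACG followed by ATTGG at a start-to-start distance of 25 or 26 bases, a spacing chosen after these sequences were seen, was in 24 entries (0.0683%), among them HLA-B, HLA-C and B2M. HLA-F has ATTGG at -82 and no TGACG. A match describes the letters only and shows no binding.

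**Figure D1:**
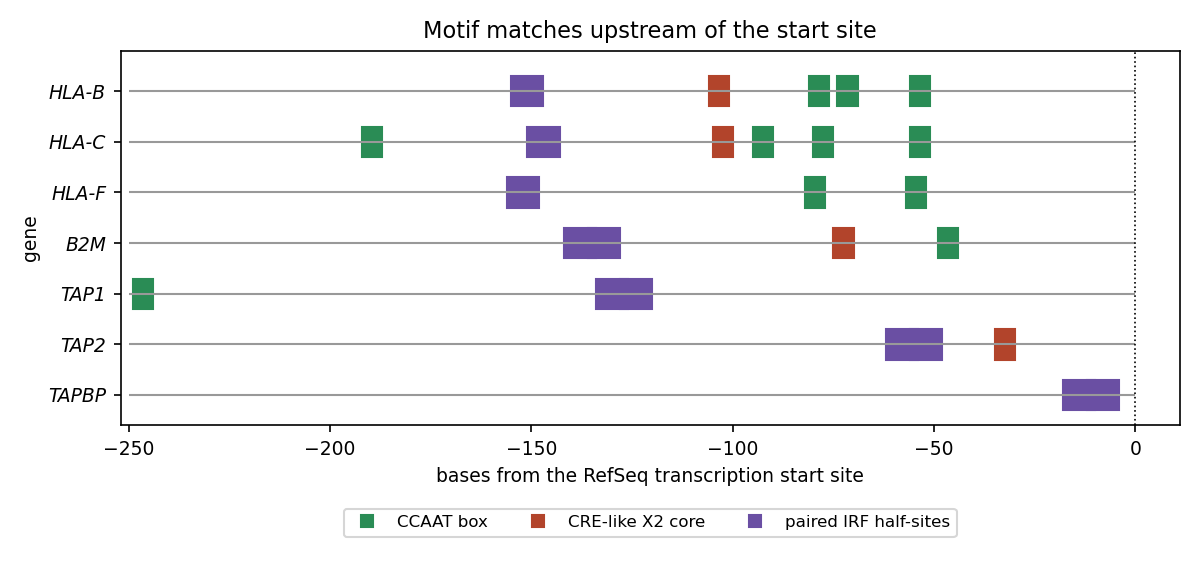
Motif matches in the 250 bases upstream of the RefSeq start site (x axis, bases from the start site) of 7 class I presentation genes (y axis). For TAP1 the first of its 2 entries is drawn. HLA-B, HLA-C and B2M carry the TGACG and ATTGG pair, and the interferon regulatory factor motifs lie nearest the start in TAPBP and TAP2.

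HLA-B, a classical heavy chain that presents peptides to CD8 T cells, showed the deepest fall of the 9. It lies on chromosome 6 at 31353872 to 31367067 (hg38, minus strand). It was at 66.9, 60.0 and 65.9 CPM in the knockdown libraries, against 157.4, 156.7 and 183 CPM in the control libraries. The highest knockdown library was thus below the lowest control library by more than the spread within either group. The log2 change was -1.37 (SE 0.06; edgeR adjusted p = 2.43e-17), and only 4.41% of all genes tested had a lower log2 change. For the other genes of the 9 that fell, this share ran from 5.75% for HLA-F to 36.2% for TAP2. It was 16.6% for TAPBP, 17.4% for B2M and 18.7% for TAP1.

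HLA-C, the classical heavy chain that is also the main ligand of inhibitory KIR receptors on natural killer cells (chromosome 6, 31268749 to 31272130), was at 70.2, 61.8 and 51.5 CPM in knockdown libraries, against 119.6, 104.8 and 124.4 CPM in control libraries. The groups did not overlap, and knockdown replicate 3 was the lowest library. The log2 change was -0.93 (SE 0.07; edgeR adjusted p = 2.34e-11). HLA-E, a non-classical heavy chain that displays leader peptides of other class I chains to the receptor NKG2A (chromosome 6, 30489509 to 30494194), was at 83.3, 88.0 and 85.9 CPM in knockdown libraries, against 136.4, 136.7 and 137.8 CPM in control libraries. Replicates of HLA-E lay close together in both groups. With a log2 change of -0.68 (SE 0.04), HLA-E moved least among the tested heavy chains that fell (edgeR adjusted p = 2.66e-13).

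HLA-F, a non-classical heavy chain of low expression (chromosome 6, 29722775 to 29738528), was at 5.61, 6.01 and 6.34 CPM in knockdown libraries, against 14.0, 12.9 and 13.6 CPM in control libraries. These levels rested on 88 to 106 counts per knockdown library and 199 to 264 counts per control library. The log2 change was -1.17 (SE 0.12; edgeR adjusted p = 5.06e-09), and -0.75 with limma on log2(FPKM + 1), a scale that understates changes of low genes. HLA-F-AS1, an RNA gene annotated across HLA-F on the other strand, also fell, to 1.63 CPM in knockdown cells, against 3.34 CPM in control cells (edgeR adjusted p = 0.00152). Whether counting used strand is not stated, and reads of HLA-F and HLA-F-AS1 then cannot be told apart.

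**Figure D2:**
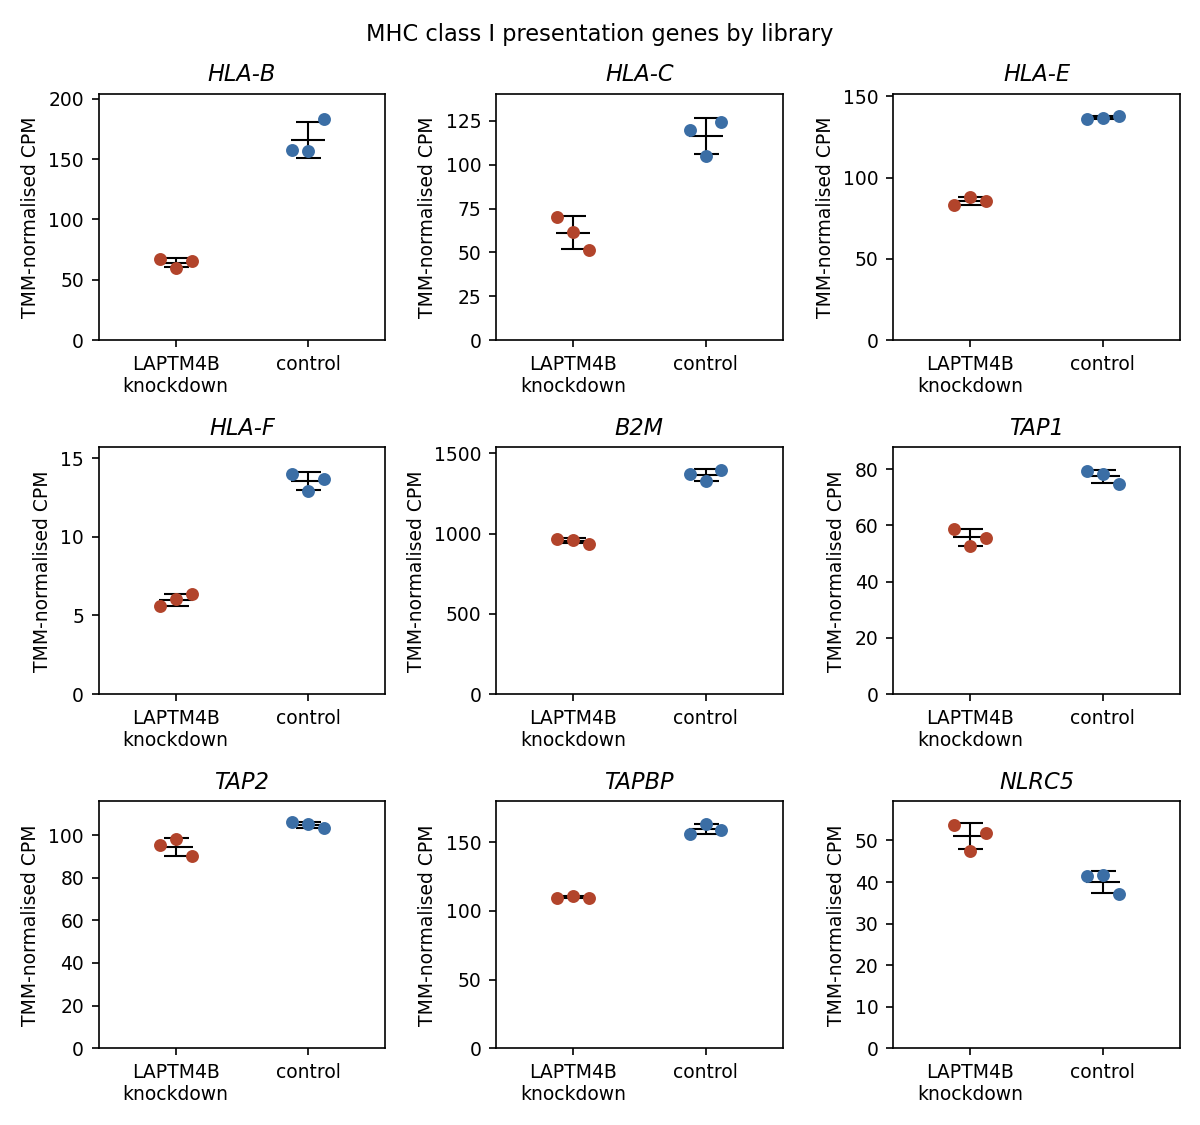
TMM-normalised CPM (y axis) of each of the 9 genes in every library, LAPTM4B knockdown left and control right; points are libraries, bars are mean and SD of 3. All knockdown points lie below all control points for 8 genes and above them for NLRC5.

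Class I heavy chains are similar to one another in sequence, so counting could split reads between them. In GENCODE release 29 transcripts, 2.72%, 5.38%, 4.34% and 0.977% of the 50-base words of HLA-B, HLA-C, HLA-E and HLA-F also occurred in another gene. A sum over genes does not depend on splits of reads among them. The counts of HLA-B, HLA-C, HLA-E and HLA-F together were at 226, 216 and 209.6 CPM in knockdown libraries, against 427, 411 and 459 CPM in control libraries. The sum averaged 217 ± 8.30 CPM in knockdown cells and 432 ± 24.3 CPM in control cells (SD, n = 3 each), a log2 ratio of -0.99. With HLA-G and 5 class I pseudogenes added it was -1.01.

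Of HLA-G and those 5 pseudogenes, 3 could be tested, and HLA-K and HLA-V fell. Among all genes tested, 27.9% were called lower and 28.0% higher. HLA-K was at 1.35 ± 0.510 CPM in knockdown cells and 5.38 ± 0.238 CPM in control cells, and HLA-V was at 0.708 ± 0.109 CPM in knockdown cells and 3.27 ± 0.511 CPM in control cells (edgeR adjusted p = 9.73e-08 and 6.81e-07). HLA-K overlaps HCG4B on the other strand, which also fell (edgeR adjusted p = 3.05e-08). HLA-H did not pass (0.685 ± 0.257 CPM in knockdown and 0.473 ± 0.169 CPM in control cells; edgeR adjusted p = 0.357). HLA-G, the heavy chain of trophoblast, had no count in any library, where 3 counts correspond to at most 0.194 CPM. No library held more than 4 counts of HLA-J or HLA-L.

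B2M, the invariant light chain needed for class I molecules to reach the surface (chromosome 15, 44711358 to 44718851), was by far the most abundant of the 9 genes. It was at 967, 962 and 938 CPM in knockdown libraries, against 1368, 1329 and 1397 CPM in control libraries. The groups lay well apart, with a fall of 30.0%. The log2 change was -0.51 (SE 0.03; edgeR adjusted p = 1.73e-13). No 50-base word of B2M was shared with another gene's transcripts.

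Levels of different genes can be compared only per length, as FPKM, which divides the count by the deposited exonic length and the library total. The B2M level was 4.29, 4.46 and 4.58 times the summed FPKM of HLA-B, HLA-C, HLA-E and HLA-F in knockdown libraries, against 3.33, 3.39 and 3.21 times in control libraries. The light chain transcript thus made up a larger multiple of these heavy chain transcripts in each knockdown library than in any control library. Within the heavy chains, the FPKM of HLA-B was 0.474 ± 0.0392 times that of HLA-E in knockdown cells and 0.765 ± 0.0648 times in control cells (SD, n = 3 each). An exact two-sided permutation test of that ratio gave p = 0.1, the smallest that 3 libraries against 3 can give. Of 9 such ratios tested, 5 reached that p, which was 0.18 after Benjamini-Hochberg adjustment over the 9 exact tests.

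In knockdown cells the FPKM levels ran B2M 312 ± 3.60, HLA-E 29.9 ± 0.856, HLA-C 24.9 ± 3.70, TAPBP 16.9 ± 0.117, HLA-B 14.2 ± 0.838, TAP1 11.98 ± 0.626, TAP2 9.30 ± 0.366, NLRC5 4.19 ± 0.261 and HLA-F 1.42 ± 0.0950 (SD, n = 3). No 2 neighbours in that order overlapped in their libraries. In control cells the order was B2M 427 ± 7.18, HLA-E 45.8 ± 0.234, HLA-C 45.3 ± 3.63, HLA-B 35.0 ± 2.88, TAPBP 23.5 ± 0.679, TAP1 15.96 ± 0.611, TAP2 9.89 ± 0.215, NLRC5 3.16 ± 0.229 and HLA-F 3.06 ± 0.120 FPKM. There HLA-E and HLA-C overlapped, as did NLRC5 and HLA-F. HLA-B therefore stood below TAPBP in knockdown cells and above it in control cells. The exonic length given for a gene covers all its annotated transcripts, so these levels depend on the annotation.

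**Figure D3:**
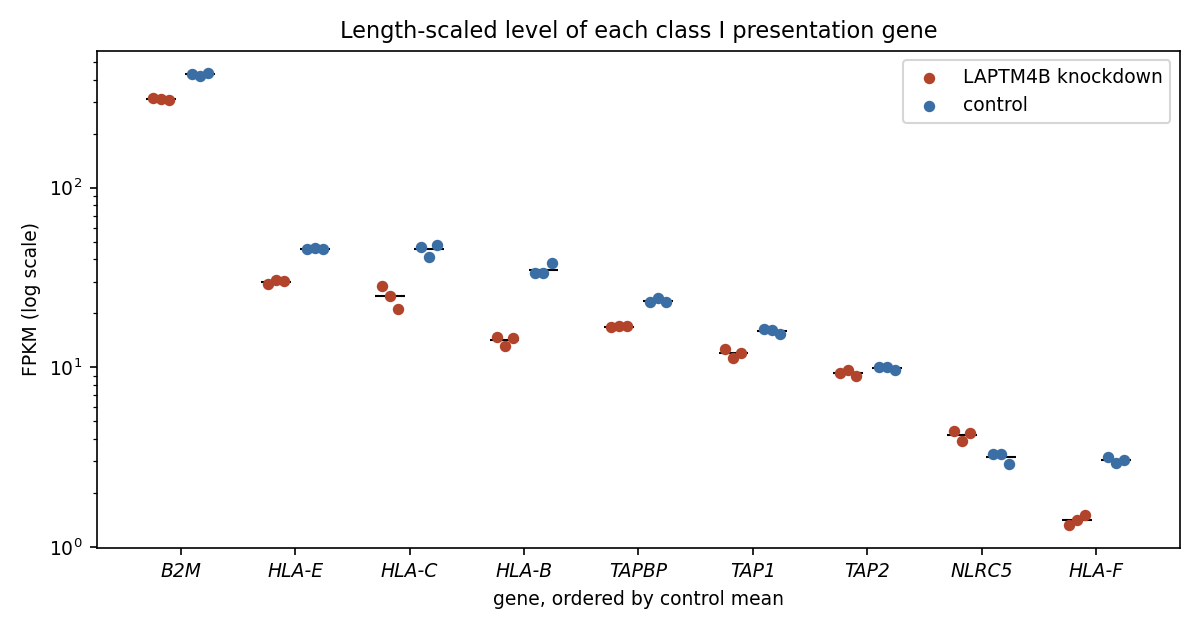
FPKM on a log scale (y axis) of the 9 genes (x axis, ordered by the control mean), with LAPTM4B knockdown libraries left of control libraries and a line at each mean of 3. B2M stands apart at 312 FPKM in knockdown and 427 FPKM in control cells, and HLA-B changes place with TAPBP.

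TAP1 (chromosome 6, 32845209 to 32853816), a subunit of the peptide transporter, was at 58.7, 52.8 and 55.6 CPM in knockdown libraries, against 79.4, 78.1 and 74.7 CPM in control libraries. Every knockdown library was below every control library. Its log2 change was -0.47 (SE 0.05; edgeR adjusted p = 1.85e-08). PSMB9 and PSMB8-AS1 overlap TAP1 on the other strand at 7.18 and 2.49 CPM in knockdown cells and 9.73 and 4.999 CPM in control cells. The sum of both is well below the level of TAP1, and reads of overlapping genes cannot be told apart without strand.

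TAP2 (chromosome 6, 32821833 to 32838739), the other subunit, was at 95.1, 98.2 and 90.1 CPM in knockdown libraries, against 106.2, 105.1 and 103.2 CPM in control libraries. The groups did not overlap, but the gap between them was narrower than the spread within the knockdown group. The log2 change was -0.15 (SE 0.05; edgeR adjusted p = 0.00626). This call was lost without knockdown replicate 3 (edgeR adjusted p = 0.0702) and with limma on log2(FPKM + 0.1) (adjusted p = 0.126). AL669918.1, an annotated gene that overlaps TAP2 on the same strand, holds 31.3% of the 50-base words of TAP2 and was at 0.419 CPM in knockdown and 0.301 CPM in control cells. The ratio of TAP1 to TAP2 in FPKM was 1.29 ± 0.101 in knockdown cells and 1.61 ± 0.0272 in control cells (exact two-sided permutation p = 0.1, the smallest possible with n = 3 each).

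TAPBP, which encodes tapasin (chromosome 6, 33299694 to 33314284), was at 109.6, 110.9 and 109.7 CPM in knockdown libraries, against 156.4, 163.8 and 159.0 CPM in control libraries. Both groups were tight and lay far apart. Its log2 change was -0.54 (SE 0.04; edgeR adjusted p = 9.80e-12). Its relative TAPBPL, the tapasin-related peptide editor, was low at 1.26 ± 0.357 CPM in knockdown and 1.64 ± 0.740 CPM in control cells and did not pass (edgeR adjusted p = 0.436).

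The general chaperones and trimming enzymes that serve class I loading moved in both directions. Of 12 genes, 1 rose and 5 fell, and the median of the list was -0.07 on the log2 scale, beside 0.01 over all genes tested. Of all genes tested, 28.0% were called higher and 27.9% lower. Calnexin (CANX), a lectin chaperone that binds new heavy chains, rose to 1712 ± 15.9 CPM in knockdown cells, against 1437 ± 43.6 CPM in control cells (edgeR adjusted p = 1.26e-07). Calreticulin (CALR), its soluble counterpart in the loading complex, was at 1037 ± 15.9 CPM in knockdown and 985 ± 28.8 CPM in control cells (edgeR adjusted p = 0.0553), and passed without control replicate 3 (adjusted p = 0.00195). PDIA3, the oxidoreductase partner of tapasin, was at 558 ± 7.87 CPM in knockdown and 538 ± 8.78 CPM in control cells (edgeR adjusted p = 0.169). With limma on log2(FPKM + 0.1) CALR, PDIA3 and ERAP1 passed as higher (adjusted p = 0.00502, 0.00613 and 0.0333).

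Among trimming enzymes, ERAP1 and ERAP2, the aminopeptidases that shorten peptides in the endoplasmic reticulum, did not pass (edgeR adjusted p = 0.131 and 0.402). ERAP1 was at 38.1 ± 1.56 CPM in knockdown and 35.2 ± 0.611 CPM in control cells, and ERAP2 was at 7.87 ± 0.378 CPM in knockdown and 7.15 ± 0.363 CPM in control cells. The 5 genes that fell were GANAB, the glucosidase II catalytic subunit, to 588 ± 8.27 CPM in knockdown cells, against 757 ± 25.8 CPM in control cells; the cytosolic peptidases NRDC, THOP1 and TPP2; and the endosomal aminopeptidase LNPEP. The log2 changes of NRDC, THOP1, TPP2 and LNPEP were -0.24, -0.24, -0.12 and -0.21. Their edgeR adjusted p-values were 9.98e-07, 3.22e-04, 0.0146 and 0.0187. The TPP2 call was lost without knockdown replicate 2 (edgeR adjusted p = 0.110), with DESeq2 (0.0516) and with limma (0.324). The LNPEP call was lost without knockdown replicate 1 or 3 (edgeR adjusted p = 0.0653 and 0.0908) and without control replicate 1 or 2 (0.0996 and 0.110), and with limma (0.385). UGGT1, the folding sensor, was at 304 ± 2.54 CPM in knockdown and 309 ± 7.97 CPM in control cells.

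Of the catalytic proteasome subunits, the interferon-induced PSMB8 and PSMB9 fell, and PSMB5, PSMB6 and PSMB7, the constitutive subunits that PSMB8, PSMB9 and PSMB10 replace, rose. In the whole list of 10 genes there were 4 increases and 2 decreases, and the list's median log2 change was 0.14. For comparison, 28.0% of all genes tested rose and 27.9% fell. PSMB8 was at 45.1 ± 2.20 CPM in knockdown and 57.4 ± 2.19 CPM in control cells (log2 change -0.35, SE 0.06; edgeR adjusted p = 9.33e-06). PSMB5 was at 71.5 ± 3.24 CPM in knockdown and 52.0 ± 3.76 CPM in control cells (log2 change 0.46, SE 0.06; edgeR adjusted p = 1.17e-07). The FPKM ratio of PSMB8 to PSMB5 was 0.281 ± 0.00390 in knockdown cells and 0.495 ± 0.0559 in control cells (SD, n = 3 each; exact two-sided permutation p = 0.1, the smallest possible).

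PSMB9 is known to share its promoter with TAP1 and was at 7.18 ± 1.02 CPM in knockdown and 9.73 ± 0.214 CPM in control cells (log2 change -0.44, SE 0.13; edgeR adjusted p = 0.00603). It overlaps both TAP1 and PSMB8, each more abundant, so its count is uncertain. PSMB10, the third interferon-induced subunit, was at 4.55 ± 0.475 CPM in knockdown and 3.97 ± 0.152 CPM in control cells and did not pass (edgeR adjusted p = 0.372). PSMB6 and PSMB7 rose with log2 changes of 0.21 and 0.24 (edgeR adjusted p = 6.13e-04 and 1.49e-05). PSME1 and PSME2, which form the interferon-induced proteasome cap, did not pass (log2 changes -0.08 and 0.09; edgeR adjusted p = 0.340 and 0.332), whereas PSME3, the nuclear cap, rose to 241 ± 3.11 CPM in knockdown cells, against 169.7 ± 5.59 CPM in control cells. PSME4, another activator, was at 155 ± 1.55 CPM in knockdown and 156 ± 5.52 CPM in control cells (edgeR adjusted p = 0.909).

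**Figure D4:**
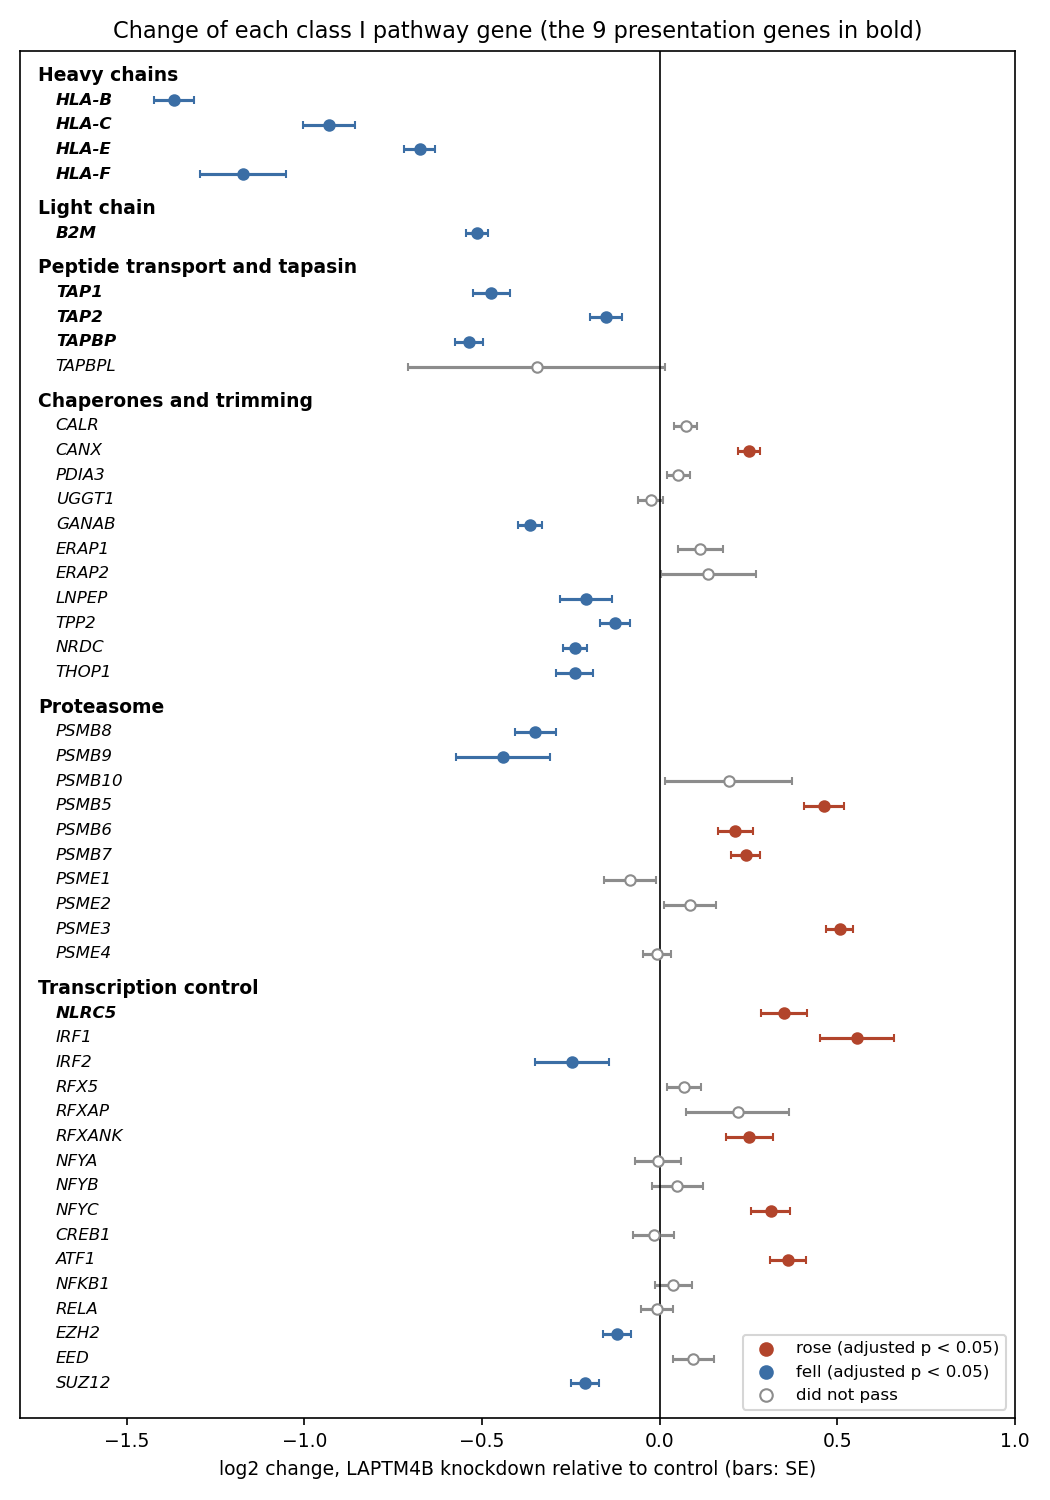
Log2 change, LAPTM4B knockdown relative to control, with SE (x axis) for class I pathway genes grouped by role, with the 9 genes described here in bold. Heavy chains lie between -0.68 and -1.37, while NLRC5 and IRF1 lie above 0.

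NLRC5 (chromosome 16, 56989485 to 57083531), the co-activator, was at 53.7, 47.5 and 51.8 CPM in knockdown libraries, against 41.5, 41.7 and 37.1 CPM in control libraries. Each knockdown library was above each control library. The log2 change was 0.35 (SE 0.06; edgeR adjusted p = 3.79e-05), and 79.6% of genes tested had a lower log2 change. CIITA, the related co-activator of MHC class II, was at 1.69 ± 0.134 CPM in knockdown and 1.30 ± 0.364 CPM in control cells and did not pass (edgeR adjusted p = 0.332).

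Of the factors that act with NLRC5 on the promoter module, 3 subunits rose and 5 missed the threshold. The list of 16 transcriptional regulators of class I genes held 4 that rose and 3 that fell, and its median log2 change was 0.06. Shares over all genes tested were 28.0% higher and 27.9% lower. IRF1, an interferon-induced activator of class I genes, rose to 21.8 ± 1.85 CPM in knockdown cells, against 14.8 ± 2.32 CPM in control cells (log2 change 0.56, SE 0.10; edgeR adjusted p = 5.33e-05). RFXANK, NFYC and ATF1, subunits of the RFX, NF-Y and CREB/ATF factors, rose with log2 changes of 0.25, 0.31 and 0.36 (edgeR adjusted p = 0.00202, 2.18e-05 and 6.58e-07).

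RFX5, RFXAP, NFYA, NFYB and CREB1 of the same factors did not pass (edgeR adjusted p = 0.221, 0.207, 0.964, 0.582 and 0.823), although RFX5 passed as higher without control replicate 3 (0.0369) and with limma (0.0420). The log2 changes of RFX5, RFXAP, NFYA, NFYB and CREB1 were 0.07, 0.22, -0.0041, 0.05 and -0.02. The NF-kB subunits NFKB1 and RELA did not pass either (log2 changes 0.04 and -0.0066; edgeR adjusted p = 0.557 and 0.914). Of the repressive PRC2 complex, which is known to silence class I genes in some tumours, EZH2 fell to 149 ± 1.56 CPM in knockdown cells, against 162 ± 2.65 CPM in control cells, and SUZ12 to 134.5 ± 1.69 CPM, against 156 ± 3.89 CPM (edgeR adjusted p = 0.00958 and 5.77e-05). The third subunit, EED, did not pass (log2 change 0.09; edgeR adjusted p = 0.172). The EZH2 call was lost without knockdown replicate 3 (edgeR adjusted p = 0.0547) and with limma (0.144). IRF2 was lower by 0.25 on the log2 scale, near the threshold (edgeR adjusted p = 0.0456), and was lost without knockdown replicate 2 or 3 or control replicate 3 (0.119, 0.169 and 0.173), with DESeq2 (0.176), without a count filter (0.0858) and with limma (0.176).

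Genes of interferon reception moved both ways. Among 10 tested genes 4 were higher and 5 lower, around a median of -0.22 on the log2 scale. Over all genes tested these shares were 28.0% and 27.9%. JAK1, the kinase shared by type I and type II interferon receptors, rose to 201 ± 1.49 CPM in knockdown cells, against 117 ± 1.94 CPM in control cells (log2 change 0.78, SE 0.04; edgeR adjusted p = 1.30e-15). The interferon gamma receptor chains went in opposite directions: IFNGR1 rose to 31.2 ± 1.03 CPM in knockdown cells, against 19.7 ± 1.89 CPM in control cells, and IFNGR2 fell to 40.2 ± 2.14 CPM, against 60.8 ± 2.58 CPM (edgeR adjusted p = 9.48e-08 and 1.94e-09). SOCS3, a feedback inhibitor of cytokine signalling, fell to 37.7 ± 0.731 CPM in knockdown cells, against 73.4 ± 2.96 CPM in control cells (edgeR adjusted p = 3.47e-14).

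**Figure D5:**
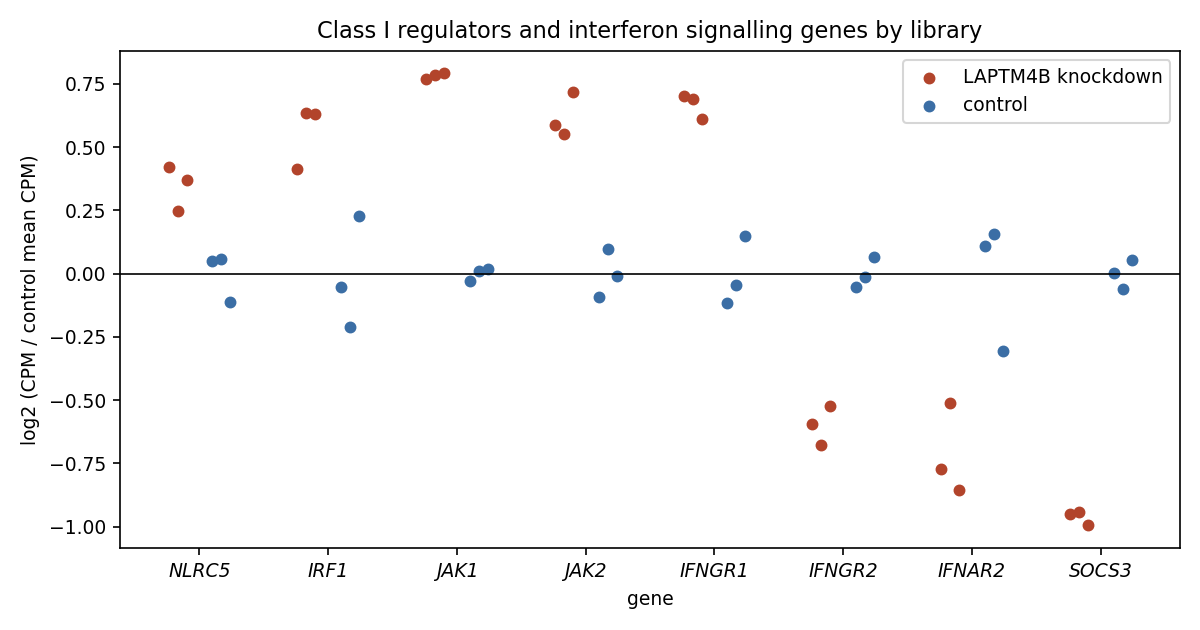
Log2 of CPM relative to the control mean (y axis) in every library for NLRC5, IRF1, JAK1, JAK2, IFNGR1, IFNGR2, IFNAR2 and SOCS3 (x axis), LAPTM4B knockdown left of control for each gene. Knockdown points of the first 5 genes lie above all their control points, and those of the last 3 lie below.

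Among class I-like molecules and natural killer cell ligands, 12 of 14 could be tested. There were 7 decreases and 2 increases, around a median of -0.27 on the log2 scale, where 27.9% of all genes tested fell and 28.0% rose. PROCR, the class I-like protein C receptor, fell 2.86-fold, to 30.1 ± 3.38 CPM in knockdown cells, against 86.1 ± 5.18 CPM in control cells (edgeR adjusted p = 1.07e-16). The ligands of the activating receptor NKG2D RAET1E and MICA fell 3.34-fold and 1.51-fold (edgeR adjusted p = 6.48e-12 and 3.25e-09). Of the other NKG2D ligands tested, named after their values were seen, MICB fell 1.22-fold and ULBP1 rose 1.81-fold (edgeR adjusted p = 7.38e-05 and 4.87e-04), and ULBP2, ULBP3 and RAET1L did not pass (log2 changes -0.21, -0.07 and -0.05). MR1, which presents vitamin B metabolites to MAIT cells and also pairs with B2M, rose to 44.3 ± 2.51 CPM in knockdown cells, against 26.6 ± 1.26 CPM in control cells (edgeR adjusted p = 7.18e-10).

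The class I turnover list of 14 genes held 8 increases and 3 decreases, around a median of 0.15 on the log2 scale. Increases and decreases made up 28.0% and 27.9% of all genes tested. With DESeq2 it held 5 increases and 2 decreases. SEL1L and UBE2J2, parts of the machinery that removes misfolded chains from the endoplasmic reticulum, rose with log2 changes of 0.36 and 0.37 (edgeR adjusted p = 3.49e-08 and 5.57e-07). MARCHF9, a ubiquitin ligase able to remove class I molecules from the surface, fell with a log2 change of -0.86, and the autophagy receptor NBR1 with a log2 change of -0.30 (edgeR adjusted p = 3.35e-07 and 4.14e-07). MARCHF4, a related ligase named after its values were seen, rose to 2.20 ± 0.860 CPM in knockdown cells, against 0.819 ± 0.0924 CPM in control cells (log2 change 1.42; edgeR adjusted p = 0.00105).

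MHC class II genes were close to absent. Of 12 genes, 6 never exceeded 3 counts in a library, and 1 of the 4 that could be tested fell. That is near the share over all genes tested, of which 27.9% were called lower. The gene that fell, HLA-DMB, a chain of the peptide exchange factor of class II, had 3 to 11 counts per knockdown library and 22 to 32 per control library (edgeR adjusted p = 0.00241). With limma on FPKM it was not among the genes tested.

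The 7 genes on chromosome 6 lie within the MHC region, between 29722775 and 33314284, and all 7 fell. Of the other 125 genes tested in this interval 46 fell (36.8%) and 27 rose (21.6%), and their median log2 change was -0.09. Without further HLA genes, 35.0% of 117 fell. Over all genes tested 27.9% fell and 28.0% rose, so falls were more frequent among the neighbours than over all genes. Most neighbours were nevertheless not called lower. The part of the shared position in these falls was not tested.

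By distance over the 6 libraries in log2 CPM relative to the control mean, the genes most like B2M among 7150 with a mean of at least 5 FPKM were CAVIN3, PTPRM and CD44, with root mean square differences of 0.0120, 0.0133 and 0.0154. CD44, an adhesion receptor of high expression, was at 1022 ± 14.5 CPM in knockdown and 1452 ± 38.2 CPM in control cells. Those most like TAP1 were MLLT6, NOL3 and CERS6, with differences of 0.0276, 0.0279 and 0.0328. With so many genes compared over 6 libraries, close matches are a description only.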

How the data were processed

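The labels' protocols name Trizol for the extraction of total RNA and an Illumina TruSeq kit for library preparation. The submitters' processing notes give hg38 as the genome build; aligner, counter, annotation release and strandedness are not given in the sources. The authors deposited 1 table with a raw count and an FPKM value for each gene and library, and the exonic length (a quantity other than expression), per the file headers. Counts divided by that length and the library total matched 100% of the deposited FPKM values within 0.0051.

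Counts were tested with edgeR 4.0.16 (R 4.3.3; TMM, filterByExpr, two-sided quasi-likelihood F test), with Benjamini-Hochberg adjustment over 16354 genes and a threshold of 0.05. The SE of a log2 change is its size over the root of F. The limit of 3 counts equals 0.155 to 0.194 CPM and covers counting error only. No pair of replicates looked like 1 library deposited again, since all were further apart than sampling noise (chi-square 1.89 to 4.38 per gene); this does not show that they were separate cultures. The labels name no batch. Alternatives were DESeq2 1.42.0, median-of-ratios factors, no count filter, a replicate block, limma 3.58.1 on log2(FPKM + 0.1) and log2(FPKM + 1) after a filter at a mean of 1 FPKM, and each library left out. The edgeR fit was tested on simulated data with 50 changed genes at each size. It recovered 58% of them at 1.25-fold, 66% at 1.5-fold, 78% at 2-fold and 98% at 4-fold. There were 10 false calls among the unchanged genes. A gene that did not pass may therefore still have changed by a small amount.

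The genes and lists were chosen with earlier results of these data known. Named genes were LAPTM4B, the 9 genes, all genes of the heavy chain, loading, proteasome and transcription lists, up to 4 of each other list with the smallest p, and the 3 genes most like B2M and TAP1. Some pathway genes are not reported here. JAK2 and IFNAR2, plotted beside these, were chosen after their values were seen. Python 3.11.15 was used for tables and plots.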

Additional observations from a re-analysis of the deposited data

How the results depend on the processing

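The direction of all 9 genes held under all 12 alternatives, and the side of the threshold held in 105 of 108 refits. The 3 exceptions were all TAP2, whose log2 change of -0.15 was -0.0879 with limma on log2(FPKM + 0.1) and -0.0803 on log2(FPKM + 1) (adjusted p = 0.126 for both), and -0.11 without knockdown replicate 3 (edgeR adjusted p = 0.0702). The HLA-F log2 change of -1.17 was -0.75 with limma on log2(FPKM + 1), where its low level lies near the pseudocount. Leaving out 1 library moved the TAP2 log2 change between -0.18 and -0.11. The class I turnover list gave 7 calls with DESeq2, against 11. The list of HLA-G and pseudogenes gave 1 call with limma on either FPKM scale, where 1 gene could be tested, against 2. The MHC class II list gave 0 calls with limma on either FPKM scale, where 1 gene could be tested, against 1. The numbers in the sample titles did not pair libraries (correlations of deviations 0.02, -0.05 and -0.04). With the replicate block 8849 genes were called, against 9143, and the block kept the calls of all 9 genes, while IRF2, IRGQ and WWP2 were no longer called (edgeR adjusted p = 0.0646, 0.0548 and 0.0508). With limma on log2(FPKM + 0.1), which changed the scaling, the test and the genes tested together, the calls split into 4496 higher and 2915 lower, against 4584 and 4559, with a median shift of 0.06 over genes tested in both. The cause was not tested. Among 97 other genes, 1130 refits kept the side of the threshold in 1068, lost a call in 51 and gained one in 11. At this depth TAPBPL, with 16 to 35 counts per library, could show only large changes.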
